A study of Mus musculus with 15 samples.

Results

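RNA of the ileum, the distal small intestine, was sequenced from 15 mice, and the levels of 10 genes of the circadian clock are described here out of 17752 genes listed in any mouse. The 10 genes are Arntl, Clock, Npas2, Per1, Per2, Per3, Ciart, Nr1d1, Nr1d2 and Dbp, found by gene symbol. They were chosen by their levels and their correlations in these same 15 mice, so these values are given as a description. The mice were female, of strain C57BL/6 in the labels and C57BL/6JOlaHsd in the study's methods, and labelled as 8 weeks old, with no altered allele named in the labels. In each of 3 groups 5 mice were gavaged, with water, with low mDP proanthocyanidins (PAC) or with medium mDP PAC, both at 200 mg/kg every 2 days over 10 days. PAC are plant polyphenol polymers, here Sephadex fractions of grape pomace, and mDP is their mean degree of polymerization. The group called medium mDP PAC here, after the study's methods, is labelled as high molecular weight PAC. The study compared the groups to see whether polymer size alters the response of the gut to PAC. The hour of the day at which the ileum was taken is not given in the sources used here.

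The circadian clock is a transcriptional loop that runs in nearly every cell. BMAL1, encoded by Arntl, pairs with CLOCK or with its close relative NPAS2 and activates genes through E-boxes in their promoters. The targets include the period genes Per1, Per2 and Per3 and also Ciart (CHRONO), whose products repress BMAL1 and its partners, and the nuclear receptors Nr1d1 and Nr1d2 (REV-ERBα and REV-ERBβ), which repress Arntl and Npas2. Dbp is a further direct target, and encodes a transcription factor that binds D-boxes and carries the rhythm to output genes. Activators and their targets therefore peak at different hours, and in the intestine the loop is known to follow both the light cycle and the hours of feeding.

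The total of expected counts per mouse lay between 15963086 and 17903886, and all 10 clock genes passed the filter on low counts that left 14386 genes for testing. Ileal bile acid genes were abundant in the tissue, with a median of 6831 FPKM (fragments of a gene divided by its transcript length and the size of the library) for Fabp6 and 264 FPKM for Slc10a2. Medium mDP PAC mouse 3 stood apart from the other 14 mice, with FPKM values that summed to 677075 against 502110 to 573980. Correlations between the clock genes and their differences between groups are given with and without it. In whole tissue, fewer cells of a type and less RNA per cell cannot be told apart.

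Sequence around the start sites of the clock genes was searched for 3 letter patterns that the loop is known to use. Windows from 250 bases before to 50 bases after a start were taken from RefSeq (GRCm38.p6) and were found for 9 of the 10 genes, in 13 windows. No window was found for Per2. The patterns, read on both strands, were the E-box CACGTG, the D-box TTATGTAA and AGGTCA, the half-site of REV-ERB and the related ROR receptors. No match overlapped a match of another pattern, and a match is only a description of letters. The E-box stood in 7.15% of all 32851 windows, the D-box in 0.94% and the half-site in 16.3%. Among the 9 clock genes the E-box was found in 2 genes, the D-box in 1 and the half-site in 4. These are counts of genes, some with more than 1 window, and cannot be set against the shares of windows. The stretches below were chosen because they hold the E-boxes and D-boxes that were found and 1 half-site of a receptor gene, with the matched letters in capitals.
Ciart, chr3:95882255-95882356, minus strand: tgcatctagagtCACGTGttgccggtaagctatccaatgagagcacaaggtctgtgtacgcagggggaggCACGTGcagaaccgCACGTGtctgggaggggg
Per1, chr11:69098753-69098818, plus strand: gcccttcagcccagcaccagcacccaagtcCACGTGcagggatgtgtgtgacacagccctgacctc
Per3, chr4:151044804-151044882, minus strand: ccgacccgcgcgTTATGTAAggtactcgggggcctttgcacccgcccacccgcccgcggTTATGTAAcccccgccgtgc
Nr1d2, chr14:18239148-18239213, minus strand: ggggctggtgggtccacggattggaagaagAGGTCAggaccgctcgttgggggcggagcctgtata

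The Ciart stretch held 3 E-boxes, at 116, 58 and 44 bases before the start, and 0.088% of all windows held 3 or more. Per3 held 2 D-boxes, at 205 and 158 bases before its start, and 0.021% of all windows held 2 or more. The E-box of Per1 lay 166 bases before an alternative start inside the gene's RefSeq span. A half-site stood 137 bases before that start, as TGACCT on the strand shown, and was left in lower case. The half-site of Nr1d2 lay 77 bases before its start, and the others were in windows of Clock and Arntl. None of the 4 stretches overlapped an exon of GENCODE M21, although the last bases of the Ciart stretch lay inside that gene's RefSeq span. A window without a match says only that these letters are not in it.

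The clock genes were detected in every mouse at levels between 0.56 and 81.5 FPKM, a scale that is corrected for transcript length. Nr1d1 was highest, with a mean of 64.4 FPKM over the 15 mice, and was above Nr1d2 (26.1 FPKM) in all 15 with no overlap of their ranges. All other neighbours in the order of mean levels overlapped in range. Dbp (15.4 FPKM) and Clock (14.2 FPKM) followed, and Dbp was above Clock in only 6 of 15 mice. Arntl (11.1 FPKM) and Npas2 (10.7 FPKM) did not separate, with Arntl higher in 8 of 15 mice. Below them came Per1 at 9.08 FPKM, Per2 at 7.81 FPKM, Per3 at 4.57 FPKM and Ciart at 2.09 FPKM. Per2 was above Per3, and Per3 above Ciart, in each of the 15 mice.

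Arntl and Npas2 differed between mice of the same group, most widely with medium mDP PAC, while Clock varied little. Arntl (chr7:113178471-113314126, plus strand), the activator without which the loop stops, was at 12.1, 11.6, 9.47, 5.96 and 13.8 FPKM in water mice 1 to 5. It was at 12.6, 14.3, 7.95, 6.69 and 14.2 FPKM in the low mDP PAC mice and at 5.65, 7.72, 12.9, 20.01 and 11.8 FPKM in the medium mDP PAC mice. Each group thus held mice with low and with high Arntl, and the lowest and highest of all 15 both belonged to the medium mDP PAC group. The group means were 10.6 ± 3.00, 11.1 ± 3.57 and 11.6 ± 5.54 FPKM (SD, n = 5) for water, low and medium mDP PAC.

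Npas2 (chr1:39193702-39363240, plus strand), which can stand in for CLOCK as partner of BMAL1, followed a like order of mice. It was at 15.03, 10.2, 10.02, 7.10 and 14.2 FPKM in water mice 1 to 5, at 12.3, 12.1, 9.18, 7.60 and 11.9 FPKM in the low mDP PAC mice and at 4.94, 8.45, 7.95, 18.1 and 11.6 FPKM in the medium mDP PAC mice. Medium mDP PAC mice 1 and 4 were again the lowest and the highest of all. Clock (chr5:76209868-76305603, minus strand), the main partner of BMAL1, was the least variable of the 10 genes. It ranged from 11.6 FPKM in medium mDP PAC mouse 3 to 16.5 FPKM in low mDP PAC mouse 5, a 1.42-fold span, with group means of 14.4 ± 0.94, 14.7 ± 1.70 and 13.4 ± 1.43 FPKM (SD, n = 5).

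Dbp and Ciart, both output or repressor genes of the loop, spanned the widest ranges. Dbp (chr7:45705100-45710203, plus strand) was at 11.3, 15.5, 13.7, 25.9 and 5.34 FPKM in water mice 1 to 5. It was at 8.90, 11.2, 20.5, 28.9 and 7.86 FPKM in the low mDP PAC mice and at 35.8, 21.5, 6.15, 3.73 and 14.3 FPKM in the medium mDP PAC mice. Ciart (chr3:95878500-95882257, minus strand) was at 1.26, 2.25, 1.56, 3.45 and 1.22 FPKM with water. In the low mDP PAC mice it was at 1.08, 1.36, 2.71, 4.10 and 1.21 FPKM, and in the medium mDP PAC mice at 5.74, 2.51, 0.75, 0.56 and 1.59 FPKM. The 5 mice with the highest Dbp were also the 5 with the highest Ciart and the 5 with the lowest Arntl. They were water mouse 4, low mDP PAC mice 3 and 4 and medium mDP PAC mice 1 and 2, so all 3 groups were among them. Between the extreme mice Ciart differed 10.3-fold and Dbp 9.61-fold. Ciart rested on few reads, with 13 to 128 expected counts per mouse, and Dbp on 106 to 972. On the opposite strand Dbp shares 539 of its 2993 exon bases with Sphk2, and the files do not show whether reads were counted by strand.

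The period genes encode the classical repressors of the loop. Per2 (chr1:91415977-91459351) was at 8.61, 6.69, 6.81, 12.01 and 5.21 FPKM in the water mice, at 6.01, 5.95, 12.7, 14.8 and 4.69 FPKM with low mDP PAC and at 14.3, 7.43, 3.77, 3.55 and 4.60 FPKM with medium mDP PAC. Per3 (chr4:150997018-151044707, minus strand) was at 3.32, 5.46, 3.74, 6.96 and 2.30 FPKM with water, at 3.36, 3.79, 5.65, 9.42 and 2.92 FPKM with low mDP PAC and at 8.96, 5.18, 2.24, 1.88 and 3.32 FPKM with medium mDP PAC. In both genes the 4 highest mice were water mouse 4, low mDP PAC mice 3 and 4 and medium mDP PAC mouse 1, all among the 5 with the highest Dbp, and the groups overlapped. Per1 (chr11:69095108-69109965, plus strand) ordered the mice less like the others, with its highest level of 17.0 FPKM in low mDP PAC mouse 3 and its lowest of 4.70 FPKM in medium mDP PAC mouse 3. Its group means were 9.38 ± 2.70, 10.2 ± 4.29 and 7.65 ± 2.32 FPKM (SD, n = 5).

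The REV-ERB genes, the repressors of Arntl in the second arm of the loop, were the most abundant of the 10 and had a smaller fold between extreme mice (2.26 for Nr1d1 and 2.03 for Nr1d2) than the other repressor and output genes, of which Per1 had the smallest at 3.61. Nr1d1 (chr11:98767932-98775377, minus strand) lay between 60.2 and 75.5 FPKM with water, between 51.5 and 79.9 FPKM with low mDP PAC and between 36.0 and 81.5 FPKM with medium mDP PAC. It shares 263 of its 3077 exon bases with Thra on the opposite strand. Nr1d2 (chr14:18204056-18239106, minus strand) lay between 20.3 and 32.5, 22.3 and 32.6, and 16.4 and 33.2 FPKM in the same order of groups. For both genes the medium mDP PAC group had the widest range, and mice 3 and 4 of that group were the lowest of all 15.

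**Figure D1:**
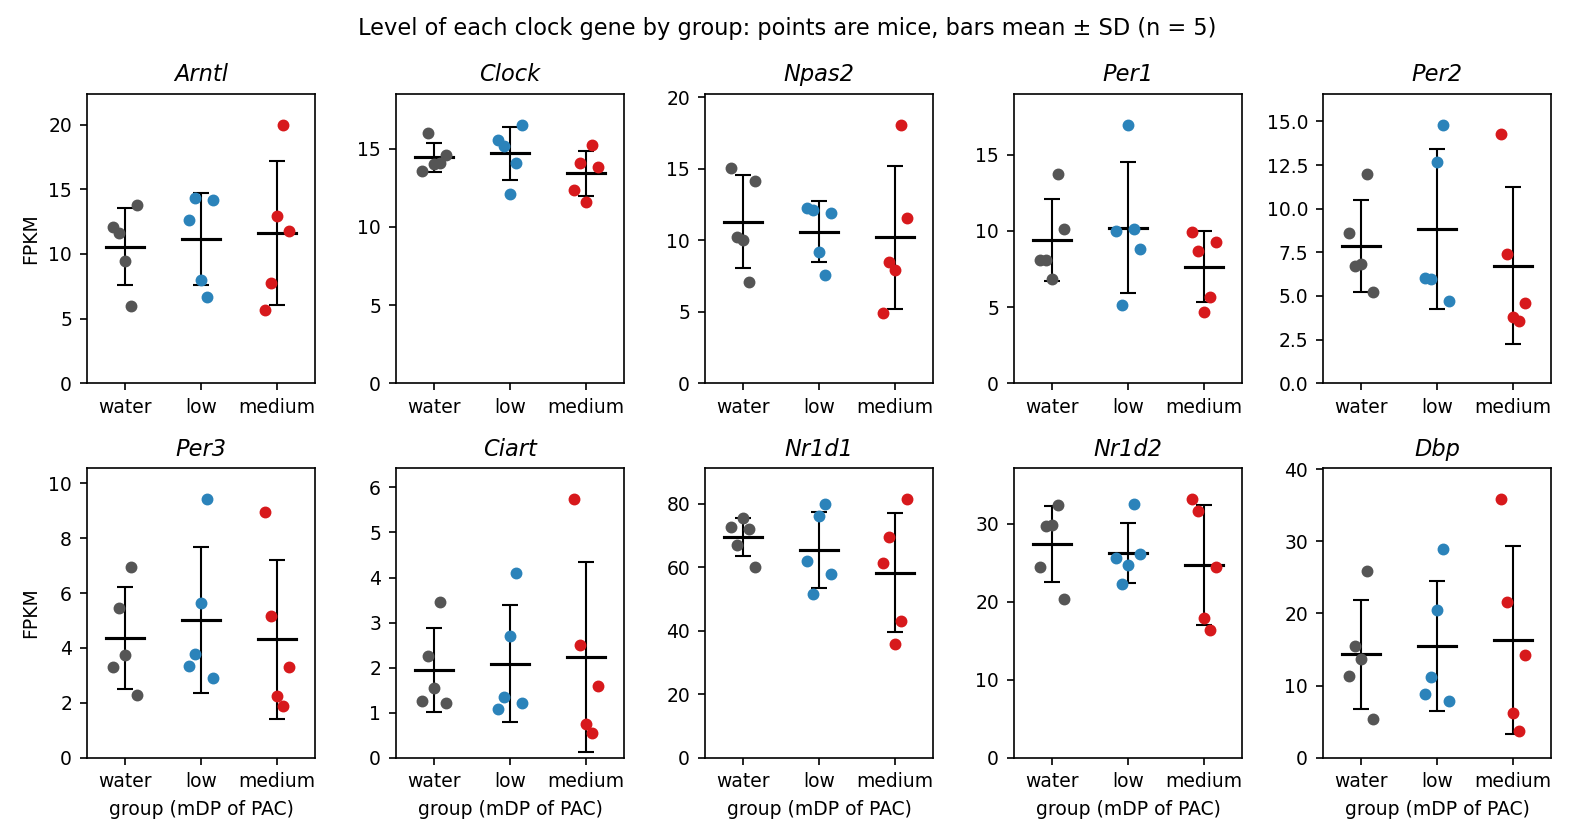
Level of each clock gene (y axis, FPKM, from 0) in each mouse by group (x axis, water, low mDP PAC and medium mDP PAC); points are mice and bars the mean ± SD (n = 5). The points of the 3 groups overlap for each of the 10 genes, and medium mDP PAC holds the highest and the lowest mouse for Arntl, Npas2, Ciart, Nr1d1, Nr1d2 and Dbp.

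The spread within groups was set beside that of 12420 tested genes with a mean of at least 1 FPKM. On the log2(FPKM + 0.1) scale the SD within groups was 1.01 for Dbp, 0.93 for Ciart, 0.73 for Per3, 0.69 for Per2 and 0.56 for Arntl, while the median of all those genes was 0.18 and their 95th percentile 0.54. These 5 genes were above that percentile. Npas2 and Per1 (0.50 each) and Nr1d1 and Nr1d2 (0.33 each) were below it but above the median, and Clock (0.14) was at percentile 32.9. Differences between group means took up 0.31% of the variance for Arntl, 0.60% for Dbp, 0.89% for Ciart and 16.3% for Nr1d1, the highest among the 10, beside a median of 16.6% over all those genes. The spread of the clock genes lay mostly between mice of the same group, as did that of the median gene. Nr1d1 and Clock (16.2%) were near that median.

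The levels in each mouse were summed up in 1 value. A clock score was taken per mouse as the mean of the 7 repressor and output genes less the mean of the 3 activators, each gene as log2(FPKM + 0.1) centred over the 15 mice. It was highest in medium mDP PAC mouse 1 (1.53), followed by low mDP PAC mouse 4 (1.14) and water mouse 4 (1.11). It was lowest in medium mDP PAC mouse 4 (-1.63), followed by medium mDP PAC mouse 3 and water mouse 5 (both -0.75). High and low scores occurred in every group, and the other mice were spread between them. The group means were 0.03 ± 0.69 for water, 0.06 ± 0.84 for low mDP PAC and -0.10 ± 1.21 for medium mDP PAC (SD, n = 5). The linear ratio of Dbp to Arntl ran from 0.388 to 4.35 with water, from 0.555 to 4.32 with low mDP PAC and from 0.186 to 6.34 with medium mDP PAC, an 11.2-fold, a 7.79-fold and a 34.0-fold span. Whether the spread of the score differed between groups was not tested.

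**Figure D2:**
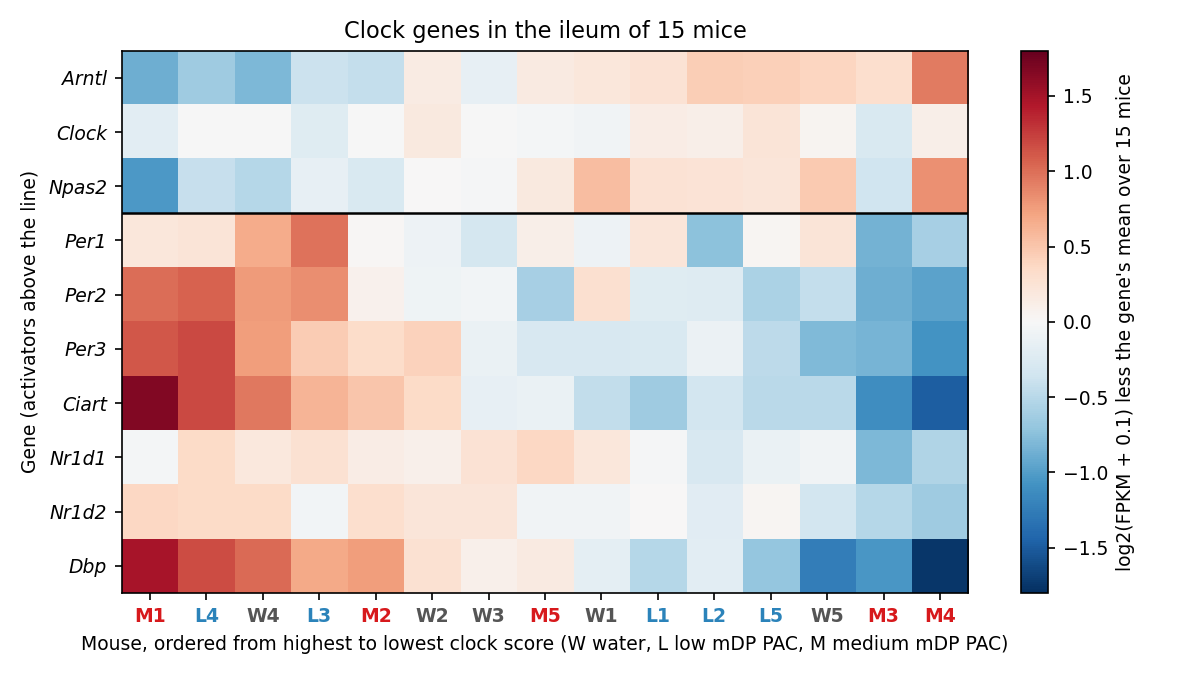
Level of the 10 clock genes (rows) in the 15 mice (columns, from the highest to the lowest clock score; W water, L low mDP PAC, M medium mDP PAC), as log2(FPKM + 0.1) less the gene's mean. From left to right Arntl and Npas2 pass from low to high while Per2, Per3, Ciart and Dbp pass from high to low, and the 3 groups are mixed along the axis.

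Activators and repressors or outputs ran in opposite directions across mice. The activator mean and the mean of the 7 repressor and output genes had a Pearson r of -0.83 and a Spearman rho of -0.85 over the 15 mice. With group means subtracted r was -0.88, and without the mice farthest from the median activator mean, medium mDP PAC mouse 1 and water mouse 4, it was -0.74. Without medium mDP PAC mouse 3, in which the 7 repressor and output genes were low (mean -0.86) while the activator mean stood at -0.11, r was -0.96. The points are single libraries in which activators and outputs share 1 scaling, and since the genes were chosen for this relation no p is given.

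**Figure D3:**
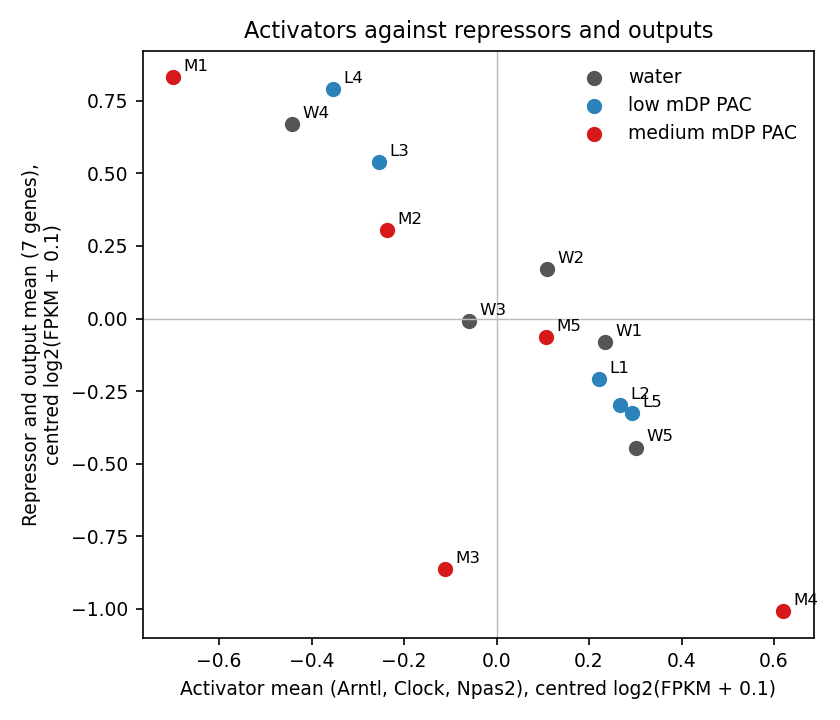
Activator mean (x axis, Arntl, Clock and Npas2) against the mean of 7 repressor and output genes (y axis), both as centred log2(FPKM + 0.1), with 1 point per mouse coloured by group (W water, L low mDP PAC, M medium mDP PAC). The points fall from upper left to lower right (r = -0.83), and medium mDP PAC mouse 3 lies to the left of medium mDP PAC mouse 4, at an activator mean of -0.11 against 0.62.

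Pair by pair, activators and repressor or output genes mostly had a negative r. Of the 21 pairs of an activator with a repressor or output gene 19 had a negative r, with a median of -0.61. Arntl reached r = -0.93 with both Ciart and Dbp and -0.90 with Per3, and Npas2 reached -0.80 with Ciart. Clock ranged from -0.34 with Per2 to 0.05 with Nr1d1, but without medium mDP PAC mouse 3 from -0.68 with Per2 to -0.27 with Nr1d2. In the 14 mice without medium mDP PAC mouse 3 all of the 21 pairs were negative, with a median of -0.68, and Clock was then farther below 0 than Npas2 with Per1 (-0.52 against -0.48) and with Nr1d1 (-0.49 against -0.44).

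Genes of the same arm moved together. Arntl and Npas2 had r = 0.87, while Clock had 0.46 with Arntl and 0.54 with Npas2. Without medium mDP PAC mouse 3 these values were 0.94, 0.65 and 0.52, so the order of the last pair turned. The 21 pairs among repressor and output genes were all positive, between 0.53 and 0.97, with a median of 0.73, and without that mouse between 0.40 and 0.96, with a median of 0.66. The closest were Per3 and Ciart (0.97), Per3 and Dbp (0.96) and Ciart and Dbp (0.96). Per1 and Nr1d1 were looser members, with r between 0.53 and 0.70 for Per1 and between 0.60 and 0.73 for Nr1d1 against the other genes of this arm. Without that mouse they had r between 0.40 and 0.60 and between 0.53 and 0.66.

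No clock gene passed the test between groups. In medium mDP PAC against water 0 of the 10 genes passed edgeR's quasi-likelihood test at an adjusted p under 0.05, beside 0.0139% of all 14386 genes tested (2 genes). At an unadjusted p under 0.05 the count was also 0 of 10, beside 14.8% of all genes, and with DESeq2 and with limma 0 clock genes passed the adjusted threshold. The smallest adjusted p was that of Clock (edgeR, 0.34), with a log2 fold change of -0.20 ± 0.09 (SE, 95% interval from -0.40 to 0.00). Next came Nr1d1, with a log2 fold change of -0.35 ± 0.19 and an adjusted p of 0.39 in edgeR. The log2 fold change was below 0 for 7 of the 10 genes and above 0 for 3, with a median of -0.22 beside 0.00 over all genes tested. Arntl differed by 0.05 (-0.62 to 0.71), Dbp by 0.07 (-1.07 to 1.21) and Ciart by 0.09 (-1.07 to 1.25) on the log2 scale, with 95% intervals. The intervals of Dbp and Ciart thus include differences of more than 2-fold in either direction. Without medium mDP PAC mouse 3 the log2 fold change moved toward 0 for Clock (from -0.20 to -0.11), Nr1d1 (from -0.35 to -0.18), Nr1d2 (from -0.25 to -0.11), Per1 (from -0.39 to -0.22), Per2 (from -0.34 to -0.14) and Npas2 (from -0.23 to -0.12). It moved away from 0 for Ciart (from 0.09 to 0.34) and Dbp (from 0.07 to 0.32), turned sign for Per3 (from -0.12 to 0.08) and was 0.05 with and without that mouse for Arntl.

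The remaining comparisons gave no call either. In low mDP PAC against water 0 of the 10 genes passed in edgeR, beside 0% of all genes at the adjusted threshold and 3.61% at an unadjusted p under 0.05, at which 0 clock genes passed too. The log2 fold changes lay between -0.15 for Nr1d1 and 0.14 for Per3, with 6 above 0 and 4 below, and the smallest adjusted p was 0.98. In medium against low mDP PAC 0 of 10 passed, beside 0% of all genes at the adjusted and 3.89% at the unadjusted threshold, where again 0 clock genes passed. The values lay between -0.45 ± 0.27 (SE) for Per1 and 0.04 ± 0.55 for Ciart, and the smallest adjusted p in edgeR was 0.90. Without medium mDP PAC mouse 3 the values lay between -0.305 for Per1 and 0.28 for Ciart, and without low mDP PAC mouse 3 that of Per1 was -0.19. DESeq2 and limma also called 0 clock genes in both comparisons. For all 10 genes the FPKM ranges of the groups overlapped in all 3 comparisons. As the genes were chosen with their values in these groups known, nothing about the clock genes is read from these counts.

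**Figure D4:**
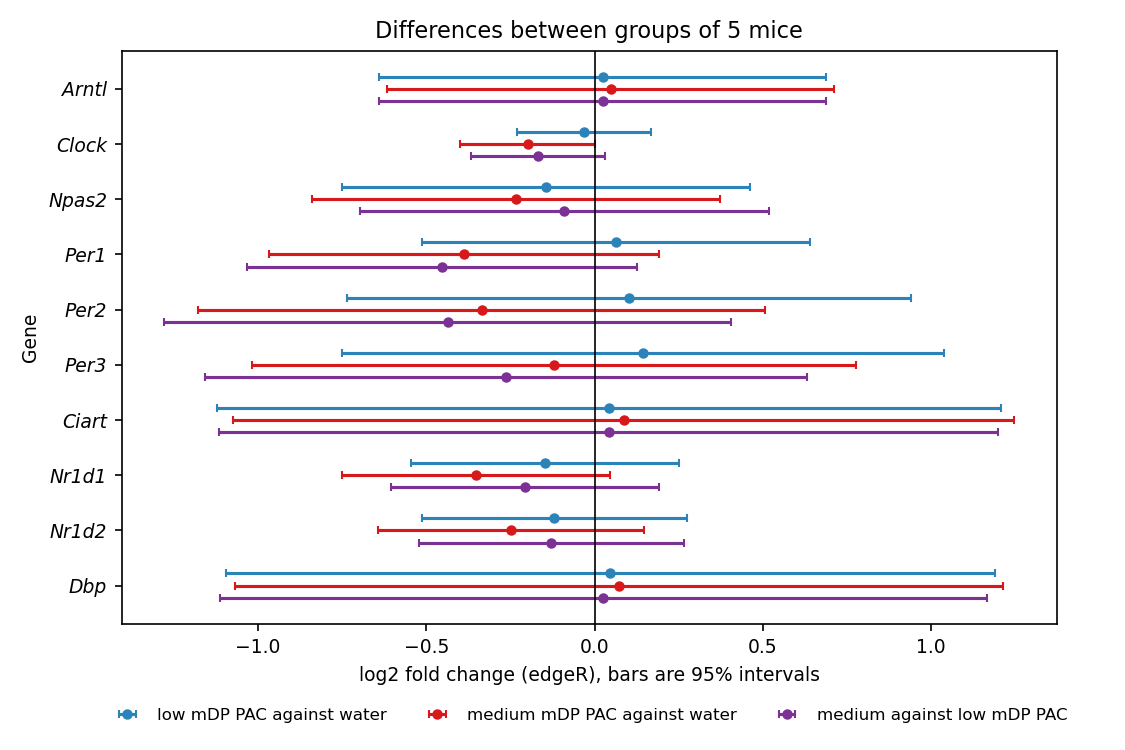
Log2 fold change of each clock gene (x axis) in the 3 comparisons of groups of 5 mice, from edgeR; points are estimates and bars 95% intervals. Every interval reaches 0, and Clock has the narrowest and Ciart and Dbp the widest.

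Several other genes of the clock were among those that followed the score most closely. The search covered 12151 genes outside the 10 with a mean of at least 1 FPKM, whose median absolute r with the score over the 15 mice was 0.18. At r of at least 0.7 there were 31 genes, and 46 at -0.7 or below, together 0.634% of those searched. Tef, which encodes a D-box factor of the same family as Dbp, was the closest with r = 0.97. It was at 14.4, 19.7, 19.1, 28.5 and 11.6 FPKM in water mice 1 to 5, at 15.7, 14.1, 23.2, 28.1 and 14.96 FPKM with low mDP PAC and at 34.0, 23.0, 8.96, 7.62 and 16.3 FPKM with medium mDP PAC. Its 5 highest mice were the 5 with the highest Dbp. Cipc, whose product binds CLOCK and represses it, had r = 0.90, and Hlf, the remaining D-box factor of that family, r = 0.88. They were followed by Tspan4 (0.88), a tetraspanin, Slc20a1 (0.86), a sodium-dependent phosphate transporter, and Usp2 (0.82), a deubiquitinase known as a clock output. Gramd2 (0.82), Nat8f5 (0.81), Cry2 (0.81), a repressor that acts with the period proteins, and Afmid (0.80) completed the 10 closest.

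Nfil3, which encodes a repressor that competes for D-boxes, ran most strongly against the score, with r = -0.94. It was at 3.35, 4.02, 4.39, 1.96 and 4.89 FPKM with water, at 4.49, 5.20, 1.89, 2.36 and 5.26 FPKM with low mDP PAC and at 1.94, 3.38, 6.85, 7.77 and 3.65 FPKM with medium mDP PAC. Its highest mice, medium mDP PAC mice 4 and 3, had the lowest scores. St5 (-0.87), Glipr2 (-0.87), Leo1 (-0.86), a subunit of the PAF1 complex, Twf1 (-0.80), which binds actin, and Ypel2 (-0.80) came next. Pnp2 (-0.79) and Pnp (-0.78), near-identical copies of a purine nucleoside phosphorylase gene whose reads may be split between them, Fam83f (-0.79) and Vmp1 (-0.77) completed the 10. With group means subtracted from genes and score, 6 of the 10 closest and 6 of the 10 most opposed genes were kept.

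Clock genes outside the 10 were followed by a list of 22, of which 21 were tested and Rorb was too low. With the score, 7 of the 21 had an absolute r of at least 0.7. Of the 19 that reached the mean of 1 FPKM set in the search, 6 did so, beside 0.634% of all genes searched. Among them were Tef, Nfil3, Hlf, Usp2 and Cry2 as above and Bhlhe41 (0.80), a repressor of E-box genes whose mean was under that level. Cry1, a strong repressor that is known to peak later than the period genes, had r = -0.59. The kinases Csnk1d (-0.15) and Csnk1e (-0.03), which phosphorylate PER proteins, and the ubiquitin ligase subunit Btrc (-0.08) stood near 0. By edgeR 0 of the 21 passed the adjusted threshold in each of the 3 comparisons, and at an unadjusted p under 0.05 there was 1 higher and 1 lower in medium mDP PAC against water, beside 14.8% of all genes, and 0 in the others, and DESeq2 and limma called 0 of them as well. Btrc had the smallest adjusted p, at 0.27, with a log2 fold change of 0.20 ± 0.08 (SE).

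**Figure D5:**
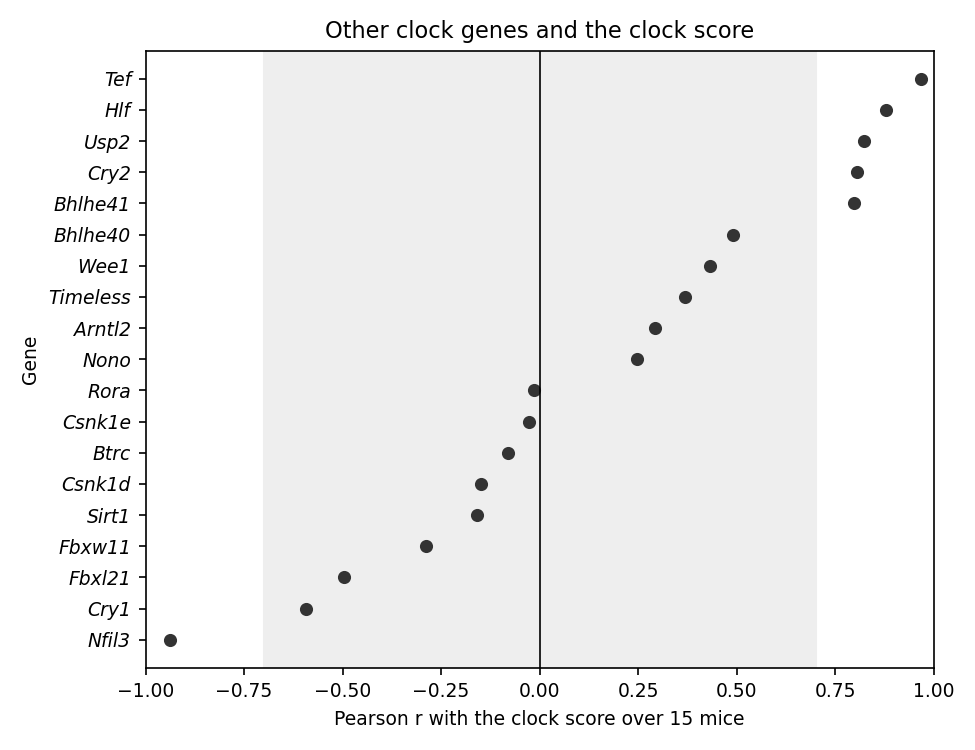
Pearson r with the clock score over 15 mice (x axis) of 19 other clock genes that were tested (y axis); the grey band spans r from -0.7 to 0.7. Tef lies at 0.97 and Nfil3 at -0.94, and 6 of the genes shown lie outside the band.

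Genes known to respond to rhythm, stress hormone or feeding were set beside the score. Of 12 transporter, lipid and cell cycle genes with a known rhythm in the gut the fructose transporter gene Slc2a5 had the highest r (0.78), and the median was 0.45. In medium mDP PAC against water 0 of the 12 passed in edgeR at the adjusted threshold. At an unadjusted p under 0.05, 6 were lower, beside 14.8% of all genes in either direction. In low mDP PAC against water 3 were lower at that level, beside 3.61% of all genes, and 0 in medium against low. Medium mDP PAC mouse 3 was the lowest mouse for Slc5a1, Slc2a5, Slc15a1, Slc9a3, Abcb1a, Abcc2, Mttp, Noct and Cdkn1a, and other mice for the rest. Counts of these genes without that mouse are not given. Limma called 0 of the 12 in each comparison, beside 9 of all 14386 genes in medium mDP PAC against water. In that comparison DESeq2 called 1 of the 12, beside 112 of all 14383 genes. The gene called was Slc9a3, which encodes a sodium-proton exchanger. Its log2 fold change was -1.34 with an adjusted p of 0.020 in DESeq2 and -1.36 ± 0.34 (SE) with an adjusted p of 0.18 in edgeR, and its r with the score was -0.02. A glucocorticoid list held 7 genes, targets of the hormone and Cyp11a1, which encodes an enzyme of steroid synthesis. The largest absolute r with the score in that list was 0.37, for Tsc22d3. The summed level of that list had r = 0.04 with the score and 0.63 with Per1, and Tsc22d3 had 0.75 with Per1. Outside that list r with Per1 was 0.56 for the summed enterocyte markers, -0.64 for those of the distal ileum and 0.78 for Slc2a5. Within the list it was 0.29 for Fkbp5 and 0.14 for Cyp11a1. What lay behind these values of r was not tested. Of 8 genes of fasting and feeding Cpt1a, which controls entry of fatty acids into mitochondria, stood farthest from 0 (-0.61), and of 8 immediate early genes Jun (-0.39). In the glucocorticoid, feeding and immediate early lists 0 genes passed the adjusted threshold in edgeR, DESeq2 or limma in each comparison. At an unadjusted p under 0.05 in medium mDP PAC against water 1 gene of the glucocorticoid list was higher, Cyp11a1, at 0.11 to 0.44 FPKM. The median log2 fold change of that list was -0.37. In the feeding list 0 genes differed and in the immediate early list 5 were lower in edgeR, all again beside 14.8% of all genes. In medium against low mDP PAC Cyp11a1 alone of the glucocorticoid list was higher and 1 immediate early gene lower, beside 3.89% of all genes. In low mDP PAC against water 0 genes of these lists differed at that level.

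Markers of other cell types and the depth of the libraries did not follow the score closely. The summed FPKM of 5 enterocyte markers had r = 0.23 with it, that of 5 markers of the distal ileum -0.30 and that of 6 crypt and proliferation markers -0.23. For proximal intestine, B cells, T cells, smooth muscle, mesothelium, enteric neurons and glia, and red blood cells the r lay between -0.05 and 0.10. The sum of 7 B cell and Peyer's patch markers varied widely between mice, from 7.05 to 148 FPKM with water, 7.47 to 74.6 with low mDP PAC and 5.66 to 224 with medium mDP PAC, and its r with the score was -0.004. The total expected count had r = -0.41 with the score and the summed FPKM -0.17. In medium mDP PAC against water 4 of the 5 enterocyte markers were lower at an unadjusted p under 0.05 in edgeR, with a median log2 fold change of -0.38 over the 5, and 2 of 6 crypt and 2 of 6 neuron and glia markers and 1 of 5 red blood cell markers were higher, beside 14.8% of all genes. Of 4 proximal intestine markers tested 1 was lower, Gata4, at -2.48 ± 0.76 (SE, adjusted p of 0.21 in edgeR). At the adjusted threshold edgeR and limma called 0 markers of these lists, and DESeq2 called 1, Krt20, at -0.40 ± 0.11 (SE, adjusted p of 0.042). Over all genes in medium mDP PAC against water edgeR called 2 of 14386, limma 9 of 14386 and DESeq2 112 of 14383. Medium mDP PAC mouse 3 was the lowest mouse for Vil1, Alpi and Krt20, and low mDP PAC mouse 2 for Fabp2 and Apoa1. The enterocyte sum ran from 9086 to 12627 FPKM with water, from 7109 to 11397 with low and from 7635 to 10918 with medium mDP PAC. These differences lay in the same comparison as those of the gut rhythm and immediate early genes above. In low mDP PAC against water, where 3 gut rhythm genes were lower, 1 of the 5 enterocyte markers was lower at that level, with a median of -0.23 over the 5, beside 3.61% of all genes. The part of these markers and of depth in the group differences and in the spread of the clock genes was not tested.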

How the data were processed

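RNA-seq of 15 ileum samples was used, 5 mice per group, with groups taken from the labels. The authors filtered 100 bp paired reads (BGISEQ-500) with SOAPnuke and aligned them to mm10 with Bowtie2. The submitters' processing notes also name HISAT and DESeq2, and the counting tool is not given in the sources used here. The authors deposited expected counts, not normalized, and FPKM with 2 decimals. A gene missing from a file was set to 0. After rounding, counts entered edgeR 4.0.16 under R 4.3.3, where TMM scaling and the quasi-likelihood test were used in 1 model of 15 mice, with Benjamini-Hochberg adjustment over 14386 genes. DESeq2 1.42.0 and limma 3.58.1 on log2(FPKM + 0.1) were alternatives, with other normalizations, no filter, each comparison alone, a block and each mouse left out. The edgeR step was tested on simulated data. Correlations used log2(FPKM + 0.1) and Python 3.11.15. Coordinates are from RefSeq (GRCm38.p6). Members and lists were chosen with earlier results of these data known. Named genes were the 10 with r closest to 1 and to -1 with the clock score (predicted and Rik genes left out), the gene with the largest absolute r of each further list and the 6 other clock genes with the largest absolute r. Slc9a3, Krt20, Gata4, Cyp11a1, Fkbp5, Csnk1d, Csnk1e, Btrc and Cry1 were named after their values were seen. So were the gut rhythm genes and enterocyte markers named for their lowest mouse. Single values of some tested genes are not reported here. Counting error was not measured against the spread between mice. Of the 10 genes Ciart rested on the fewest reads, with 13 to 128 expected counts per mouse.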

Additional observations from a re-analysis of the deposited data

How the results depend on the processing

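No clock gene was called under any alternative in any of the 3 comparisons, and the smallest adjusted p was 0.21. At an unadjusted p under 0.05 at most 2 passed, in medium mDP PAC against water without medium mDP PAC mouse 2 or 4. The shares of all genes at that level were 13.5% and 17% in these 2 settings. Over all genes, medium mDP PAC against water gave 2 calls in edgeR, 112 in DESeq2 and 9 in limma, and low mDP PAC against water 0, 2 and 0. With mouse number as a replicate block, the count of clock genes called was 0 in each comparison, and the count over all genes was 2, 0 and 0. The numbers were not taken to pair the mice, since the correlations of same-numbered mice ran from -0.31 to 0.45. Limma on log2(FPKM + 0.1) turned the sign of 6 of 30 log2 fold changes, all of them small: in medium mDP PAC against water Ciart to -0.16 and Dbp to -0.075, in low mDP PAC against water Clock to 0.019, and in medium against low mDP PAC Arntl to -0.006, Ciart to -0.18 and Dbp to -0.17. The cause was not tested.

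Leaving out 1 mouse turned the sign of 16 of 30. In medium mDP PAC against water the values ran from -0.25 to 0.23 for Arntl, from -0.55 to 0.11 for Per3, from -0.61 to 0.40 for Ciart and from -0.42 to 0.40 for Dbp. In low mDP PAC against water they ran from -0.13 to 0.16 for Arntl, from -0.071 to 0.032 for Clock, from -0.20 to 0.25 for Per1, from -0.16 to 0.31 for Per2, from -0.20 to 0.38 for Per3, from -0.34 to 0.36 for Ciart and from -0.30 to 0.37 for Dbp. In medium against low mDP PAC they ran from -0.28 to 0.20 for Arntl, from -0.41 to 0.09 for Npas2, from -0.70 to 0.083 for Per3, from -0.65 to 0.42 for Ciart and from -0.47 to 0.37 for Dbp. The other 14 kept their sign. In medium mDP PAC against water they ran from -0.26 to -0.11 for Clock, from -0.56 to -0.054 for Npas2, from -0.49 to -0.21 for Per1, from -0.79 to -0.13 for Per2, from -0.50 to -0.18 for Nr1d1 and from -0.37 to -0.11 for Nr1d2. In low mDP PAC against water they ran from -0.27 to -0.002 for Npas2, from -0.23 to -0.083 for Nr1d1 and from -0.22 to -0.05 for Nr1d2. In medium against low mDP PAC they ran from -0.23 to -0.11 for Clock, from -0.62 to -0.19 for Per1, from -0.89 to -0.18 for Per2, from -0.36 to -0.057 for Nr1d1 and from -0.25 to -0.016 for Nr1d2. The extremes mostly came without medium mDP PAC mouse 1 or 4, low mDP PAC mouse 4 or water mouse 4, and for Clock, Nr1d1 and Nr1d2 often without medium mDP PAC mouse 3. The correlation of activators with repressors and outputs ran from -0.96 without medium mDP PAC mouse 3 to -0.77 without medium mDP PAC mouse 4, and was -0.74 on log2 CPM. With Spearman's rho, 6 of the 10 genes closest to the score and 4 of the 10 most opposed were kept. Leaving that mouse 3 out of the pairs of genes was chosen after seeing the data.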
